A study of Mus musculus with 21 samples.

Results

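The genes described are 42 collagens and other extracellular matrix genes for which fibroblasts are known, 15 of them collagen chains. They were chosen by name, and all 42 were found among the 23420 gene symbols of the raw count table. They were read in all 21 libraries of sorted inflammatory monocytes (IMs) from mice. Tumor infiltrating IMs (TIMs) came from FVB mice that carried LN2E1 (KAL-LN2-E1) lung squamous carcinoma cells placed in the lung, and were taken from primary tumors (n = 5) and from lymph node metastases (n = 5). Other TIMs came from DBA2 mice given LN4K1 cells by vein, and were taken from lung metastases (n = 5). The number of cells injected was larger for LN2E1 than for LN4K1. Bone marrow IMs (BM IMs) came from healthy FVB mice (n = 3) and healthy DBA2 mice (n = 3). LN2E1 is a line made by passage through mice, and the study's methods describe young adult animals of both sexes. Cells were enriched with a monocyte kit and sorted as CD45+, CD11b+, Ly6G- cells with high Ly6C, and Siglec-F+ cells of lung tissue were discarded with the dead cells. Such a sort should remove CD45- cells, fibroblasts among them, and alveolar macrophages of the lung, and RNA of any cell that passed it was read too. The methods of the study call the replicates technical, so p-values measure only the spread between these libraries.

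Matrix proteins hold tissues together. Fibrillar collagens form the tension-bearing fibers, collagen IV forms the sheet under epithelia and vessels, and small proteoglycans, elastic fiber proteins and cross-linking enzymes set how the fibers pack. Fibroblasts make most of this material in the lung and in tumors, whereas monocytes are known mainly for matrix-binding and provisional matrix proteins such as fibronectin. In these bulk samples, fewer cells of a type and less RNA per cell cannot be told apart.

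Total counts per library lay between 80772922 and 101043568. Levels are given in CPM, counts scaled to the same library total with TMM factors over the 21 libraries, and 3 counts, the limit that a count of 0 allows, came to between 0.0268 and 0.0405 CPM per library. That limit covers counting error only. The lymph node library of replicate 1 had the fewest genes with at least 10 counts, 11047, and the LN4K1 lung library of replicate 3 the next fewest, 12015. These libraries also held the lowest summed levels of the matrix genes in their groups, so counts are given below with and without them. Of 9 monocyte markers, 8 were in the table, and all 8 were detected in every group. Their summed level lay between 39310 and 123700 CPM in all libraries, against a summed level of at most 1976 CPM for the 42 matrix genes. Primary tumor sums (39980 to 50820 CPM) lay under those of FVB marrow (51990 to 70060 CPM). Lymph node sums overlapped those of FVB marrow. LN4K1 lung sums (69620 to 123700 CPM) lay above those of DBA2 marrow (48850 to 54460 CPM). Against same-strain marrow, 4 markers rose in each tumor group (edgeR, adjusted p under 0.05). Ly6c2, a Ly6C gene, fell in each, by log2 fold changes of -1.30 (primary tumor), -1.17 (lymph node) and -0.88 (lung). Lyz2 fell in both LN2E1 groups and rose in the lung.

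Promoter windows are shown for genes on which the results below turn. Col1a2 and Col3a1 were the most abundant fibrillar collagens, Col4a1 and Col4a2 start within 22 bases of each other on opposite strands, and Tnc had the lowest adjusted p of the 42 genes between tumor sites. The windows hold 250 bases before and 50 after each start and come from RefSeq (GRCm38.p6), read 5′ to 3′ on the strand of the gene. Capitals mark CCAAT or TATAAA on either strand, so CCAAT can also read ATTGG, and the motifs do not overlap each other.
Col1a2, chr6:4505368-4505667, plus strand: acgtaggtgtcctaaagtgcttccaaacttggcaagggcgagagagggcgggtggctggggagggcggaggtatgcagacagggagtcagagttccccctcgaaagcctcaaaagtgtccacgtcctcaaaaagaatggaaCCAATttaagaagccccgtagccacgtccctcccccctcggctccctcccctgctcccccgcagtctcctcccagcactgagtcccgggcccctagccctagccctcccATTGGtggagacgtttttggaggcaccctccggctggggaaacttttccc
Col3a1, chr1:45311288-45311587, plus strand: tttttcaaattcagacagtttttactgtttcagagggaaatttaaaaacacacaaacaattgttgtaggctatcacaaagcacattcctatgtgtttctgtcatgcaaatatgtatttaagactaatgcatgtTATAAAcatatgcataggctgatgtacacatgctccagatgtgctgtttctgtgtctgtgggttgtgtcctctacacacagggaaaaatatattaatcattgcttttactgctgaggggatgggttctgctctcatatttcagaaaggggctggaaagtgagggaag
Col4a1, chr8:11312777-11313076, minus strand, also holding the Col4a2 start: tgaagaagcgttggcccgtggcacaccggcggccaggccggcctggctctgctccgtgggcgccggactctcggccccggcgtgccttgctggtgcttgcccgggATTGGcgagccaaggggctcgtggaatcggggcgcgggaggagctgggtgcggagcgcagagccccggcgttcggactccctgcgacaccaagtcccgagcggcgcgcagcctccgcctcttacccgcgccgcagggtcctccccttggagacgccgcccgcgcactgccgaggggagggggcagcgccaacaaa
Tnc, chr4:64046966-64047265, minus strand: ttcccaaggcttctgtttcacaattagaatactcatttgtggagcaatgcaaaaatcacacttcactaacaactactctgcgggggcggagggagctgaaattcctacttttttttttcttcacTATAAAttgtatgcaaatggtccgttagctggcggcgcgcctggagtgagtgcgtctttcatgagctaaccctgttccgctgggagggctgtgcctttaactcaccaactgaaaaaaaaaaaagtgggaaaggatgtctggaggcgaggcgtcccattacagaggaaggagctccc
Windows were matched for 24 of the 42 genes, in 29 entries, and not for Col1a1, Col5a2, Col12a1, Col14a1, Dcn, Lum, Eln, Mfap4, Mfap5, Lox, Loxl1, Loxl2, Comp, Cthrc1, Mgp, Pdgfrb, Thy1 and Fap. CCAAT was in 27.6% of the 29 entries and in 37.4% of all 32851 promoter windows. TATAAA was in 20.7% of the entries and in 13.6% of all windows. A match of letters is a description and not evidence of binding.

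In BM IMs most of the matrix genes were at or near 0. Only 11 to 16 of the 42 had more than 3 counts in an FVB BM IM library and 11 to 14 in a DBA2 BM IM library, and the summed level was 14.3 to 21.9 CPM in FVB and 8.84 to 16.1 CPM in DBA2. The growth factor receptor gene Pdgfrb, a marker of pericytes and fibroblasts, was the highest of them in FVB BM IMs per length, at 1.22 ± 0.394 CPM per kb of exon (SD, n = 3). Next came Sparc, a collagen-binding matricellular protein, at 1.02 ± 0.180 CPM per kb (SD, n = 3). In DBA2 BM IMs Fbln1, an elastic fiber and basement membrane protein, was highest, at 0.862 ± 0.170 CPM per kb (SD, n = 3).

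Between the marrow groups, 10 of the 42 genes passed the filter on low counts. None was a DEG, which here means that edgeR's quasi-likelihood test gave a log2 fold change beyond 1 in either direction with an adjusted p under 0.0001, where 0.403% of 12905 genes were DEGs. DESeq2 called 3 of them, and 4 had an unadjusted p under 0.05. With an adjusted p under 0.05 alone, 4 passed, beside 21.1% of all genes. Pdgfrb was lower in DBA2 than in FVB BM IMs (5.67, 5.21 and 9.16 CPM in FVB, and 0.0924, 0.0599 and 1.26 CPM in DBA2), with a log2 fold change of -3.81 ± 1.01 (SE) and an adjusted p of 0.0312. Sparc was also lower in DBA2, by a log2 fold change of -2.54 ± 0.485 (SE, adjusted p = 0.0096), and no library of one strain overlapped the other. Col6a3, a chain of the microfibril collagen VI, had 321 counts over the FVB libraries and 1 over the DBA2 libraries, a ratio of 315 with a 95% counting interval of 56.1 to 12470 (adjusted p = 0.00262). Fbln1 went the other way, at 0.318, 0 and 0.322 CPM in FVB and 4.16, 2.78 and 3.65 CPM in DBA2, a log2 fold change of 4.06 ± 0.992 (SE, adjusted p = 0.0243).

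**Figure D1:**
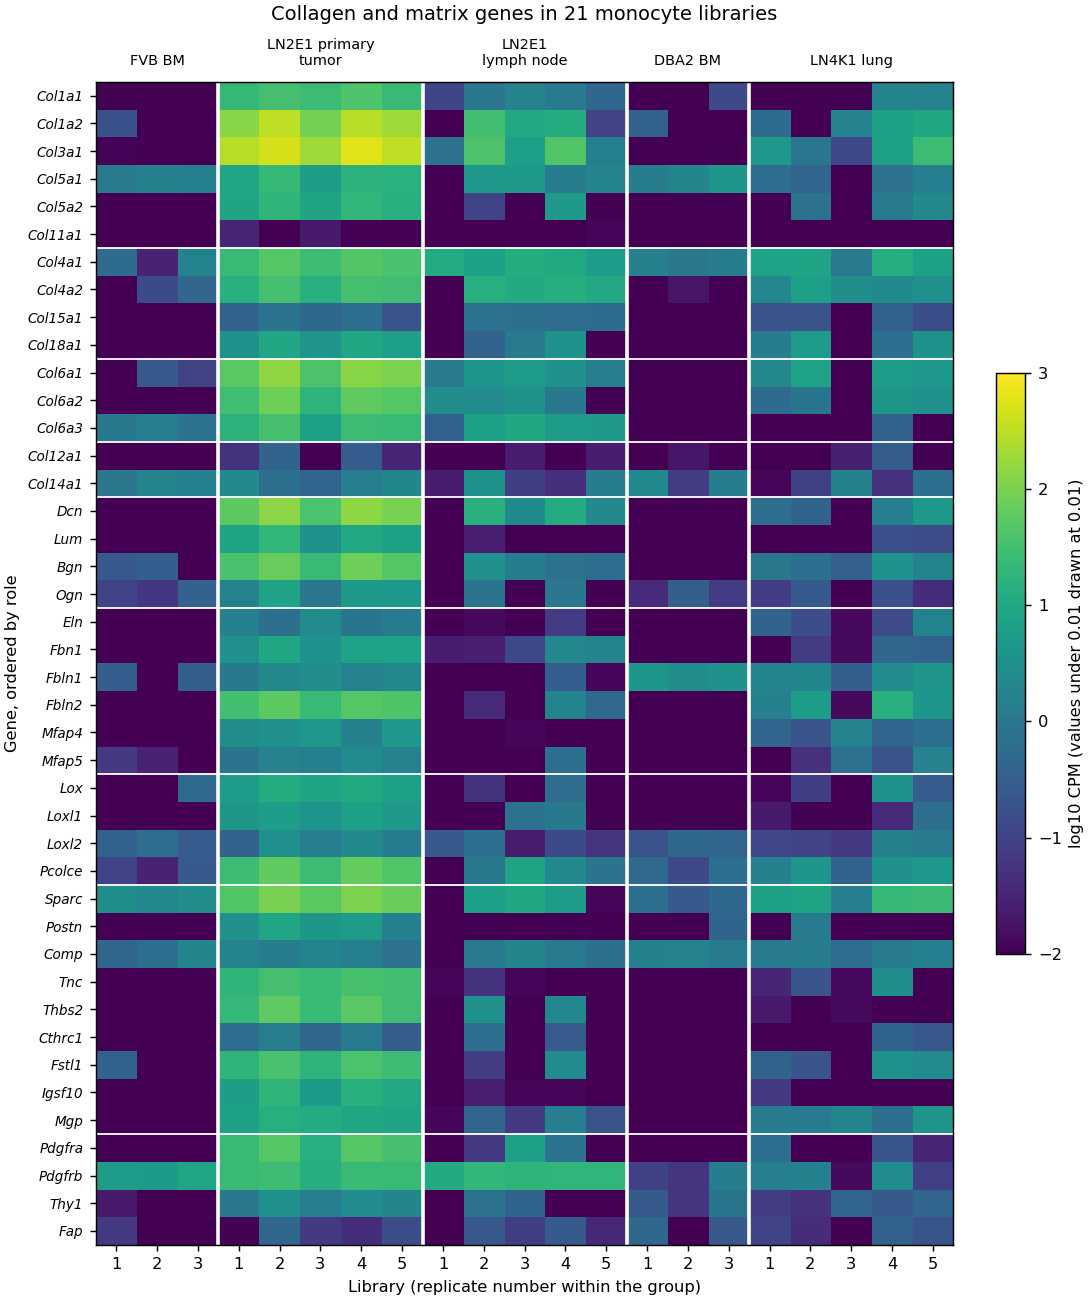
Levels of the 42 genes (rows, ordered by role, with white lines between roles) in 21 libraries (columns, by group and replicate number), as log10 CPM with values under 0.01 drawn at 0.01. The 5 LN2E1 primary tumor libraries are filled for nearly all genes, the lymph node and LN4K1 lung libraries are patchy, and the BM IM libraries are mostly empty.

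LN2E1 primary tumor TIMs carried the matrix genes at far higher levels than FVB BM IMs, from the fibrillar collagens to the cross-linking enzymes. Every primary tumor library had 40 or 41 of the 42 genes above 3 counts. The summed level was 957, 1963, 751, 1976 and 1348 CPM in replicates 1 to 5, against at most 21.9 CPM in FVB BM IMs. Of the 42 genes, 24 were DEGs and higher, beside 7.72% of all 14569 genes tested, and 0 were lower. With an adjusted p under 0.05 alone 37 rose, beside 33.3% of all genes, Comp and Col14a1 did not pass, and Col11a1, Col12a1 and Fap were too low to test. No gene was lower at an unadjusted p under 0.05 or in DESeq2, which called 34 higher. As a description, the median log2 fold change of the 39 genes tested was 9.58, or 7.65 with the 21 genes that had 0 to 3 counts in FVB BM IMs set at their bound or ratio, and that of all genes was 0.08. A gene that passed the filter only through the group where it was high had to differ. The number of DEGs was 15, 12 and 14 without FVB BM IM replicate 1, 2 or 3, 14 without primary tumor replicate 5 and 8 when all 5 groups were fitted together, and in each of the fits that left out 1 library 36 or 37 genes rose with an adjusted p under 0.05.

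Among the fibrillar collagens, 5 of 6 rose. Col3a1, the chain of type III collagen found in pliable tissues, stood at 295, 476, 194, 582 and 330 CPM in the primary tumor replicates and at 0.0114, 0.0102 and 0 CPM in FVB BM IMs. No library came near the other group, and with 2 counts over the marrow libraries the ratio was 56180, with a 95% counting interval of 15550 to 463900 (adjusted p = 4.04e-07). Col1a2, the minor chain of type I collagen, stood at 128, 330, 89.2, 290 and 198 CPM against 0.182, 0.0102 and 0 CPM, a log2 fold change of 11.74 ± 0.942 (SE, adjusted p = 8.91e-06). The major chain Col1a1 stood at 21.6, 33.0, 26.6, 41.5 and 24.8 CPM against 1 count in all FVB BM IMs (adjusted p = 1.59e-07). Col5a1 and Col5a2, whose products set the width of type I fibers, rose as well. Col5a1 was already present in FVB BM IMs at 1.21 to 1.53 CPM and rose by a log2 fold change of 3.29 ± 0.436 (SE, adjusted p = 0.000152), whereas Col5a2 was at 0 there and was at least 457-fold higher, against a limit of 3 counts per library. Col11a1, a chain of a minor cartilage collagen, had at most 3 counts in any primary tumor library.

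The collagens of sheets and microfibrils also rose. Col6a1 stood at 53.2, 147, 40.05, 129 and 101 CPM in primary tumor TIMs and at 0, 0.244 and 0.107 CPM in FVB BM IMs, a log2 fold change of 9.58 ± 0.847 (SE, adjusted p = 1.6e-05). Col6a2 was at 0 in the marrow and at 18.1 to 78.8 CPM in the tumors, at least 1554-fold higher. Col6a3, at 6.84 to 33.3 CPM, rose by 4.27 ± 0.522 on the log2 scale (SE, adjusted p = 9.89e-05). Of the basement membrane chains, Col4a1 rose by 5.46 ± 0.886 (SE, adjusted p = 0.000629) and Col4a2 by 6.89 ± 0.870 (SE, adjusted p = 0.000136) on the log2 scale. Col18a1, the source of endostatin, was at 0 in the marrow and at 3.75 to 10.2 CPM in the tumors, and Col15a1, its relative, had 1 count over the marrow libraries and 0.198 to 0.803 CPM in the tumors (adjusted p = 0.00086). Neither fibril-associated collagen passed. Col14a1 had 0.419 to 2.38 CPM in primary tumor TIMs and 0.943 to 1.74 CPM in FVB BM IMs, with overlapping groups, and Col12a1 reached at most 0.384 CPM.

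All 4 small leucine-rich proteoglycans rose. Dcn (decorin), which coats collagen fibrils, stood at 55.0, 134, 38.2, 139 and 97.9 CPM against 1 count in all FVB BM IMs, and had an adjusted p of 2.59e-06. Bgn (biglycan) rose by a log2 fold change of 8.17 ± 0.834 (SE, adjusted p = 3.79e-05). Lum (lumican) was at 0 in the marrow and at 3.65 to 20.3 CPM in the tumors, at least 325-fold higher. Ogn (osteoglycin) rose by 4.42 ± 0.894 (SE, adjusted p = 0.00203).

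The elastic fiber genes rose from lower levels. Fbln2 led them at 30.6, 54.8, 24.3, 48.9 and 42.2 CPM and was at 0 in FVB BM IMs, at least 1317-fold higher (adjusted p = 2.03e-06). Fbn1 (fibrillin 1), Mfap4 and Eln (elastin) were at 0 in the marrow too, and were at least 215-fold, 113-fold and 44.5-fold higher. Fbln1 rose by 3.18 ± 0.972 on the log2 scale (SE, adjusted p = 0.0173) and Mfap5 by 5.62 ± 0.924 (SE, adjusted p = 0.000573). Among the enzymes and their helpers, Pcolce, which speeds the trimming of procollagen, stood at 27.0, 61.5, 26.9, 66.1 and 44.1 CPM and rose by 8.34 ± 0.668 (SE, adjusted p = 8.85e-06). The cross-linking enzymes Lox and Loxl2 rose by 5.50 ± 1.18 (SE, adjusted p = 0.00305) and 2.03 ± 0.675 (SE, adjusted p = 0.0247), and Loxl1 was at 0 in the marrow and at least 171-fold higher.

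Of 9 matricellular proteins, which bind matrix and cells without building fibers, 8 rose. Sparc stood at 44.7, 92.8, 53.9, 101 and 73.1 CPM in primary tumor TIMs and at 3.08, 2.20 and 3.01 CPM in FVB BM IMs, a log2 fold change of 4.70 ± 0.332 (SE, adjusted p = 3.04e-06). Tnc (tenascin C) stood at 18.9, 33.99, 23.2, 34.6 and 31.3 CPM against 1 count in all FVB BM IMs, and Thbs2 (thrombospondin 2) at 21.02, 57.4, 23.1, 52.1 and 28.9 CPM against 0. Fstl1 rose by 7.79 ± 1.04 (SE, adjusted p = 0.000189). Mgp, Igsf10, Postn (periostin) and Cthrc1 were all at 0 in the marrow and were at least 329-fold, 362-fold, 161-fold and 25.9-fold higher. Comp, a cartilage matrix protein, was the exception, at 0.744 to 1.803 CPM in primary tumor TIMs and 0.443 to 1.91 CPM in FVB BM IMs.

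Of the surface proteins, Pdgfra, the receptor that marks most fibroblasts, was at 0 in FVB BM IMs and at 23.0, 48.5, 13.9, 48.8 and 34.2 CPM in the tumors, at least 1105-fold higher (adjusted p = 2.15e-05). Its relative Pdgfrb stood at 23.0, 28.6, 13.1, 22.9 and 23.1 CPM against 5.67, 5.21 and 9.16 CPM, and rose by 1.70 ± 0.283 on the log2 scale (SE, adjusted p = 0.000629). Thy1, a surface protein of fibroblasts and T cells, had 3 counts over the FVB BM IMs and 1.01 to 3.26 CPM in the tumors (adjusted p = 6.49e-05). Fap, known from activated tumor fibroblasts, stayed between 0.0108 and 0.452 CPM.

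**Figure D2:**
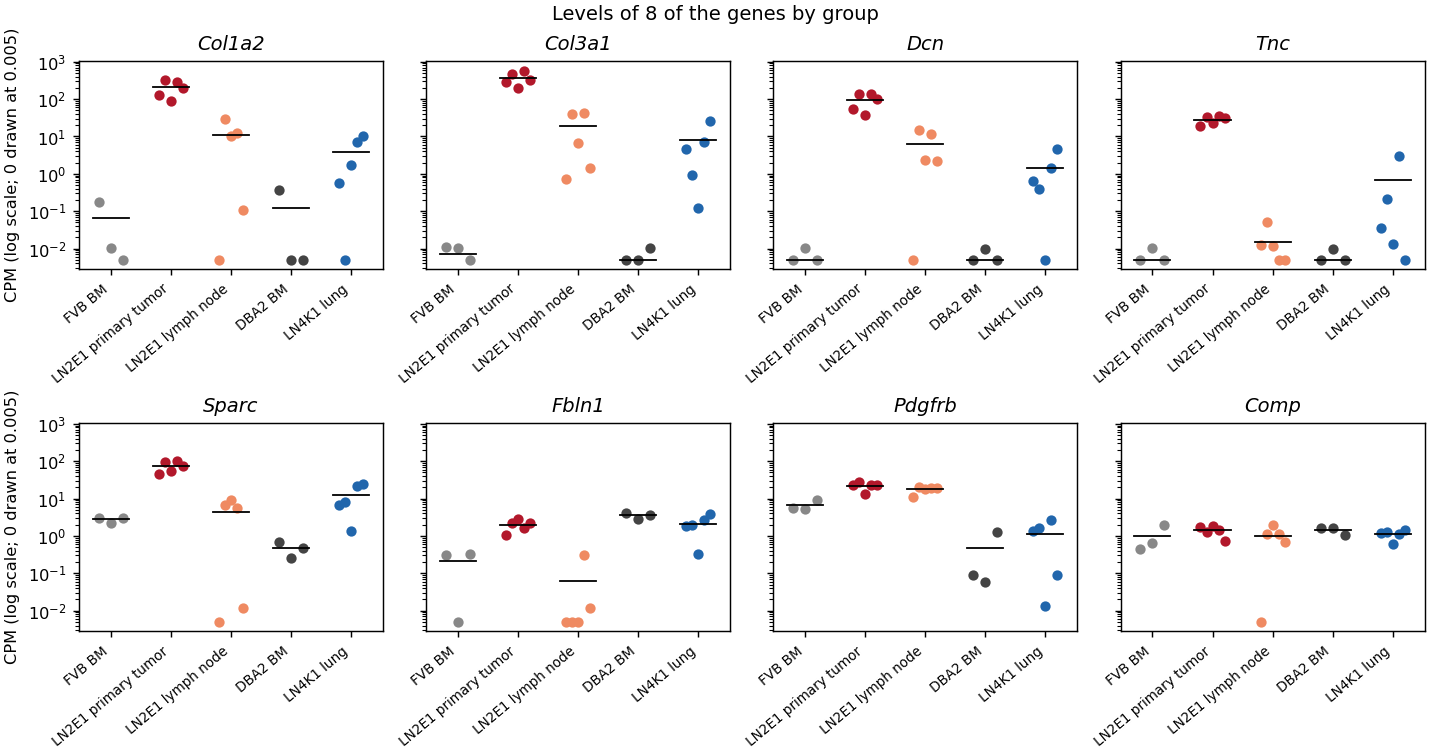
CPM on a log scale (0 drawn at 0.005) of 8 of the genes in each library, by group, with black lines at the group means. Col1a2, Col3a1, Dcn and Tnc separate the primary tumor libraries from all others, Pdgfrb is high in the 3 FVB groups and low in both DBA2 groups, and Comp overlaps between groups.

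Per length, the order of the levels in primary tumor TIMs began with Col3a1 at 67.5 ± 27.6 CPM per kb, Dcn at 47.8 ± 23.4, Col1a2 at 38.7 ± 19.2, Sparc at 26.9 ± 8.89 and Pcolce at 26.5 ± 10.9 CPM per kb (SD, n = 5). Neighbors in this order lay within their spread. Chains that form 1 collagen molecule kept different ratios. Col1a1 per kb was 0.0902 to 0.269 of Col1a2 in the primary tumor libraries (as background, type I collagen holds more Col1a1 than Col1a2 chains). Col6a1 per kb was 2.61 to 3.24 times Col6a2, and Col4a1 was 1.20 to 1.86 times Col4a2. The neighbors Col4a1 and Col4a2 did not keep that ratio elsewhere. In DBA2 BM IMs Col4a1 had 144, 102 and 119 counts and Col4a2 had 1, 2 and 0, and in lymph node replicate 1 Col4a1 had 989 counts and Col4a2 had 0. Their annotated 5′ ends share 22 bases (both starts are within the Col4a1 window shown above), of 6.615 kb of exon in Col4a1 and 6.45 kb in Col4a2. Because libraries were not stranded, reads in those 22 bases could belong to either gene. Exons of 12 of the 42 genes overlap a gene on the opposite strand, and exons of 3 overlap a gene on the same strand. The same limit holds for reads in these overlaps.

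**Figure D3:**
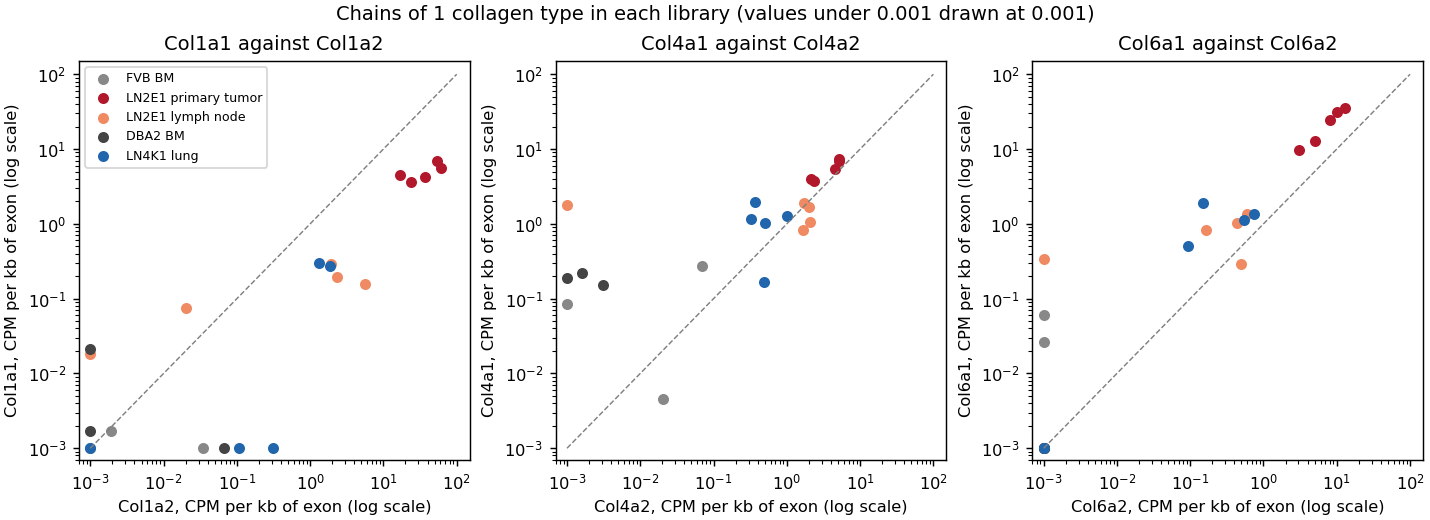
Levels in CPM per kb of exon on log scales (values under 0.001 drawn at 0.001) of Col1a1 against Col1a2, Col4a1 against Col4a2 and Col6a1 against Col6a2, with 1 point per library colored by group and a dashed line where both are equal. Primary tumor points lie below the line for Col1a1 and above it for Col6a1, and the DBA2 BM points of Col4a1 lie far above the line.

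Among the primary tumor libraries the genes moved up and down together. Of 39 genes with at least 10 counts in every primary tumor library, 30 (76.9%) had replicates 2 and 4 as the highest libraries, against 12.1% of all 12744 genes with that many counts. Replicate 3 was lowest for 19 of them (48.7%) and replicate 1 for 14 (35.9%), against 27.0% and 21.6% of all genes. This order was noticed in the data and then counted, and it carries no test. The level in replicate 2 was a median of 2.28 times that in replicate 3 over the 39 genes, and 1.002 times over all genes. The range ran from 0.266 times for Eln to 7.61 times for Ogn. The 9 genes outside that order were Col14a1, Eln, Fbn1, Fbln1, Mfap4, Mfap5, Comp, Mgp and Pdgfrb, of which Eln, Fbln1, Mfap4 and Comp were higher in replicate 3 than in replicate 2.

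**Figure D4:**
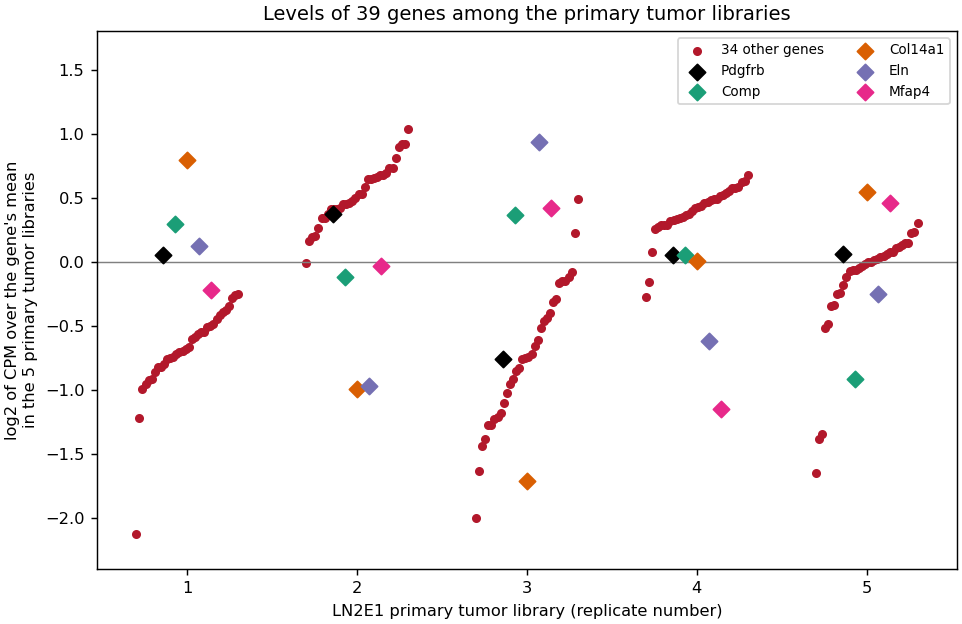
Level of each of 39 genes in the 5 LN2E1 primary tumor libraries, as the log2 of its CPM over its own mean in these libraries. Most red points lie above 0 in replicates 2 and 4 and below 0 in replicates 1 and 3, and the diamonds (Pdgfrb, Comp, Col14a1, Eln and Mfap4) do not share that order.

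Markers of other cell types were read in the same libraries. Of 17 fibroblast markers that are not among the 42 genes, 16 were detected in primary tumor TIMs and 12 rose there (adjusted p under 0.05). Mmp2, a gelatin-cutting protease, stood at 40.5, 86.2, 31.9, 87.6 and 68.6 CPM against 0.125, 0.173 and 0.652 CPM, the transcription factor Prrx1 at 4.05, 9.78, 2.84, 9.41 and 6.03 CPM against 2 counts, and the BMP antagonist Grem1 at 6.56, 13.3, 3.98, 17.0 and 10.7 CPM against 0. These 3 are examples from the 12 that rose, and all 3 had replicates 2 and 4 as the highest libraries. Of all genes with at least 10 counts in every primary tumor library, 12.1% had that order. How many of the 12 had it was not counted. Pi16 and Serpinf1 were abundant in BM IMs, so the list is also given without them, a choice made after their values were seen. Without them the summed level was 85.4, 166, 60.0, 222 and 151 CPM in primary tumor replicates 1 to 5 and 0.316 to 1.09 CPM in FVB BM IMs. With all 17 it was 242, 290, 257, 391 and 318 CPM in primary tumor replicates 1 to 5, highest in replicates 4 and 5. In FVB BM IMs all 17 summed to 86.9 to 138 CPM.

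The 5 mesothelial markers, of which 3 were tested and Msln rose, summed to 21.6, 74.7, 13.8, 52.0 and 36.0 CPM in primary tumor replicates 1 to 5 and to at most 0.754 CPM in FVB BM IMs. Of 12 pericyte and smooth muscle genes, 7 were tested in primary tumors, where Cspg4, Des, Notch3 and Tagln rose and Itga8 fell (adjusted p under 0.05). The list summed to 25.5 to 29.9 CPM in primary tumors and 30.1 to 36.3 CPM in FVB BM IMs, and its pericyte marker Rgs5 reached at most 0.0442 CPM. The 14 endothelial markers, of which 12 were tested, 3 rose and 1 fell, summed to 13.5 to 32.3 CPM in primary tumors and 7.64 to 15.4 CPM in FVB BM IMs. Of 9 lung epithelial genes 8 rose, and Napsa, which was high in every group, fell. Without Napsa they summed to 214, 167, 256, 541 and 895 CPM in primary tumor replicates 1 to 5, an order unlike that of the matrix genes, and to at most 2.60 CPM in FVB BM IMs. With Napsa they summed to 866 to 1688 CPM and 779 to 982 CPM. The 14 squamous epithelial genes, of which 6 were tested and 5 rose, summed to 3.42 to 4.11 CPM in FVB BM IMs. In primary tumor replicates 1 to 5 they summed to 62.2, 98.2, 66, 107 and 89.5 CPM. Replicates 1 and 3 were the lowest, as for the summed matrix genes. The part of any such cells in the levels of the matrix genes was not tested.

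Of 10 marrow stroma and bone genes, 2 rose and 1 fell in primary tumor TIMs, with sums of 23.6 to 31.6 CPM against 7.72 to 11.7 CPM in FVB BM IMs. Of 6 lymph node stroma genes, 2 rose, and the sums were 7.79 to 37.0 CPM against at most 0.134 CPM. Of 6 neutrophil genes 2 rose and 3 fell, and of 5 alveolar macrophage genes tested 1 rose and 1 fell. Neutrophil genes summed to 571 to 848 CPM in primary tumors and 2475 to 2939 CPM in FVB BM IMs, and alveolar macrophage genes to 26.4 to 39.1 CPM and 113 to 149 CPM.

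**Figure D5:**
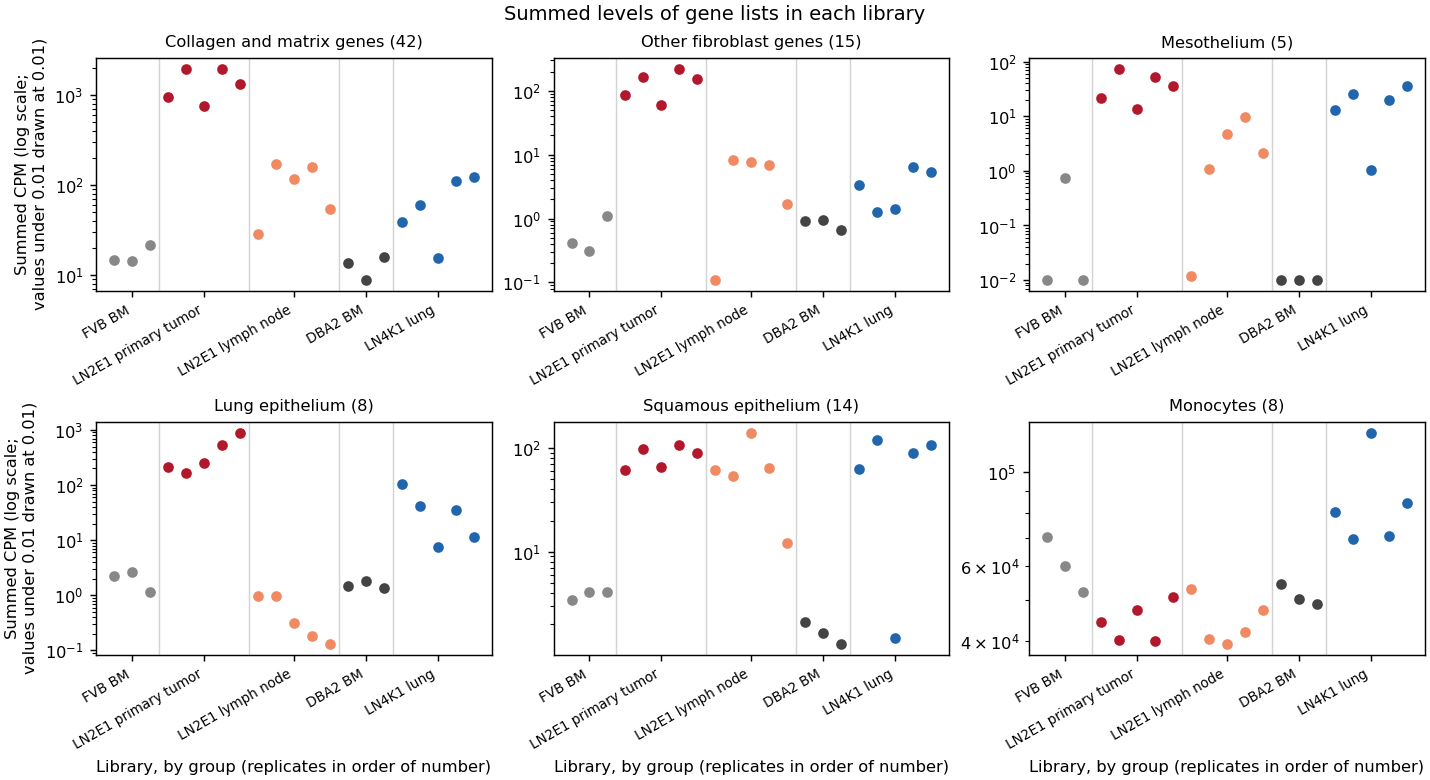
Summed CPM on a log scale (values under 0.01 drawn at 0.01) of the 42 genes and of 5 marker lists in each library, by group, with replicates in order of number. Other fibroblast genes (without Pi16 and Serpinf1), mesothelial genes and squamous epithelial genes share their 2 lowest primary tumor libraries with the 42 genes. The lung epithelial list has another order.

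LN2E1 lymph node TIMs held lower and uneven levels of the same genes. The summed level was 29.0, 171, 118, 158 and 54.8 CPM in replicates 1 to 5, and 8, 30, 24, 34 and 19 of the 42 genes had more than 3 counts. All 5 lay above the highest FVB BM IM library, and replicate 1 lay nearest to it. Against FVB BM IMs, which also serve as the control of the primary tumor comparison, 23 genes passed the filter and none was a DEG, beside 4.01% of 13273 genes that were DEGs and higher. DESeq2 called 7, and 15 had an unadjusted p under 0.05 in edgeR, all of them higher. With an adjusted p under 0.05 alone 12 rose, beside 20.2% of all genes. Here too, genes that passed the filter only through lymph node TIMs had to differ, so that share is no fair measure for them. Without lymph node replicate 1, 15 rose, and without FVB BM IM replicate 1, 2 or 3 it was 6, 7 and 6, and without lymph node replicate 4 it was 8. The median log2 fold change of the 23 genes was 4.24, or 3.76 with 8 of them at their bound or ratio, against -0.04 for all genes.

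Of the 12, 8 were collagens. Col3a1 stood at 0.727, 41.0, 6.64, 43.4 and 1.41 CPM, all above the FVB BM IM libraries (adjusted p = 0.00241). Col1a2 stood at 0, 30.2, 10.4, 12.49 and 0.107 CPM and overlapped the marrow, with an adjusted p of 0.0425. Col4a1 was the most even of them, at 12.0, 6.90, 12.6, 11.1 and 5.51 CPM, and rose by 3.58 ± 0.995 (SE, adjusted p = 0.0178). Col4a2 stood at 0, 13.4, 11.2, 12.9 and 10.6 CPM (adjusted p = 0.0406), Col6a1 rose by 4.74 ± 1.31 (SE, adjusted p = 0.0177), and Col1a1, Col6a2 and Col15a1 rose with adjusted p of 0.00763, 0.0154 and 0.0309. Of the other matrix genes, Dcn (0 to 14.8 CPM, adjusted p = 0.00791), Mgp (adjusted p = 0.0306) and Fbn1 (adjusted p = 0.0329) rose. Pdgfrb was the exception to the uneven pattern, at 11.3, 20.6, 17.8, 19.5 and 19.7 CPM, and rose by 1.41 ± 0.302 (SE, adjusted p = 0.0049).

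Compared with primary tumor TIMs, lymph node TIMs were lower for 21 of the 42 matrix genes. Tnc stood at 0.0121, 0.0530, 0.0119, 0 and 0 CPM in lymph node TIMs and at 18.9 to 34.6 CPM in primary tumor TIMs, and fell by 10.76 ± 0.563 on the log2 scale (SE, adjusted p = 8.17e-06). Igsf10 had 4 counts over the lymph node libraries and 4895 over the primary tumor libraries, and fell by 9.92 ± 0.739 (SE, adjusted p = 9.42e-05). Both were DEGs, 2 of the 4 DEGs among 13488 genes, all 4 of which were lower (0.0297%). Each fit without 1 library left 1 of them or, without lymph node replicate 3, none. With an adjusted p under 0.05 alone 21 of the 42 genes were lower, beside 5.55% of all genes, and none was higher. Genes that passed the filter only through primary tumor TIMs had to be lower. DESeq2 called 11 lower and 0 higher. Without lymph node replicate 1 the number was 25, and it was 15 to 22 without any other library.

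Postn had no count in any lymph node library and 134 to 818 counts in the primary tumor libraries, at least 133-fold lower (adjusted p = 0.000942). Lum had 2 counts over the lymph node libraries, a ratio of 2027 with a 95% counting interval of 561 to 16740 (adjusted p = 0.000167), and Mfap4 had 1, a ratio of 1390 with an interval of 249 to 54920 (adjusted p = 0.000282). Log2 fold changes were -5.08 ± 0.589 for Col1a1 (SE, adjusted p = 0.000632), -4.88 ± 0.541 for Col6a1 (SE, adjusted p = 0.000488), -5.41 ± 0.879 for Bgn (SE, adjusted p = 0.00349) and -6.38 ± 1.16 for Fbln2 (SE, adjusted p = 0.00541). For Col3a1 the log2 fold change was -4.32 ± 1.02 (SE, adjusted p = 0.0193), for Dcn -3.89 ± 0.998 (SE, adjusted p = 0.0282) and for Col4a1 -1.91 ± 0.281 (SE, adjusted p = 0.00219). The others that were lower were Col1a2, Col6a2, Eln, Lox, Pcolce, Sparc, Thbs2, Fstl1 and Mgp. Pdgfrb (13.1 to 28.6 CPM in primary tumor and 11.3 to 20.6 CPM in lymph node TIMs, adjusted p = 0.421) and Col15a1 (adjusted p = 0.971) did not pass.

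Of the fibroblast markers outside the 42 genes, none rose and 1 of 8 tested (Serpinf1) fell in lymph node TIMs against FVB BM IMs. Compared with primary tumors, 6 of 13 tested were lower. The summed level without Pi16 and Serpinf1 was 0.109, 8.12, 7.60, 6.86 and 1.66 CPM in replicates 1 to 5. In FVB BM IMs it was 0.316 to 1.09 CPM. With all 17 it was 87.5 to 132 CPM in lymph node TIMs and 86.9 to 138 CPM in FVB BM IMs. Mesothelial genes summed to 0.0121 to 9.83 CPM and lung epithelial genes without Napsa to 0.131 to 0.981 CPM, and 6 lymph node stroma genes, of which 2 were detected and Ccl21a was at 0, to 0.185 to 12.2 CPM. Endothelial genes summed to 17.2 to 32.3 CPM and squamous epithelial genes to 12.01 to 142 CPM. The part of such cells was not tested.

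LN4K1 lung TIMs were compared with BM IMs of their own strain. The summed level was 39.2, 59.9, 15.6, 112 and 124 CPM in replicates 1 to 5, against 8.84 to 16.1 CPM in DBA2 BM IMs, and replicate 3 lay within the marrow range. Of 40 genes above 3 counts in any of these libraries, 17 were highest in replicate 4 and 13 in replicate 5. Of the 9 with at least 10 counts in every lung library, 2 were highest in replicate 4 and 5 in replicate 5. Among all 11477 genes with that many counts the shares were 11.85% and 16.71%. None of the 29 genes tested was a DEG, beside 1.21% of 13624 genes that were DEGs and higher. In DESeq2 12 were called, and 19 had an unadjusted p under 0.05 in edgeR, all higher. With an adjusted p under 0.05 alone 15 rose, beside 13.9% of all genes. Here too, genes that passed the filter only through lung TIMs had to differ, so that share is no fair measure for them. Without lung replicate 3, 3 genes were DEGs and 17 rose. Without DBA2 BM IM replicate 1, 2 or 3, 6, 6 and 5 genes rose, and without lung replicate 5, 9. The median log2 fold change of the genes tested was 7.04, or 4.09 with 15 of them at their bound or ratio, against 0.03 for all genes.

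All 4 basement membrane collagens rose. Col4a2 stood at 2.08, 6.50, 3.15, 2.35 and 3.28 CPM in lung TIMs and had 3 counts over the DBA2 BM IMs, a ratio of 342 with a 95% counting interval of 117 to 1660 (adjusted p = 0.00012). Col4a1 rose by 2.49 ± 0.651 (SE, adjusted p = 0.0214), from 1.02 to 1.48 CPM in the marrow. Col18a1 and Col15a1 were at 0 in the marrow and had adjusted p of 0.0274 and 0.0488. Col3a1 was the only fibrillar collagen that rose, at 4.57, 0.908, 0.121, 7.17 and 26.5 CPM (adjusted p = 0.00866), and Col1a2 (0.568, 0, 1.68, 7.17 and 10.0 CPM, adjusted p = 0.125) did not pass. Col6a1 and Col6a2 were at 0 in the marrow, at up to 7.77 and 4.47 CPM in lung TIMs, and rose with adjusted p of 0.0188 and 0.0287.

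Mgp, which keeps cartilage and vessel walls from calcifying, was the more even of the other genes, at 1.29, 1.09, 1.96, 0.652 and 3.94 CPM against 0, at least 57.9-fold higher (adjusted p = 0.00115). Mfap4 stood at 0.429, 0.211, 1.62, 0.424 and 0.669 CPM against 0 (adjusted p = 0.00512). Sparc stood at 6.91, 8.17, 1.39, 21.6 and 25.1 CPM against 0.667, 0.249 and 0.486 CPM, with no overlap, a log2 fold change of 4.67 ± 0.944 (SE, adjusted p = 0.00596). Bgn, Fbln2, Eln and Fstl1 were at 0 in the marrow and rose with adjusted p of 0.00319, 0.0196, 0.037 and 0.0399, and Dcn rose from 1 count (adjusted p = 0.0248). In any lung library Thbs2 had at most 2 counts, Igsf10 at most 6, Lum at most 16, Col6a3 at most 37 and Pdgfra at most 58. Tnc had 299 counts in replicate 4 and at most 20 in the others. Fbln1 (1.82, 1.96, 0.324, 2.60 and 3.86 CPM against 2.78 to 4.16 CPM in DBA2 BM IMs, adjusted p = 0.358) and Comp (adjusted p = 0.541) did not pass.

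Fibroblast markers without Pi16 and Serpinf1 summed to 3.38, 1.26, 1.39, 6.47 and 5.37 CPM in lung TIMs and to 0.665 to 0.948 CPM in DBA2 BM IMs. With all 17 the sums were 77.85 to 224 CPM in lung TIMs and 174 to 203 CPM in DBA2 BM IMs. Of 8 tested, 2 rose and Serpinf1 fell, by a log2 fold change of -2.99 ± 0.289 (SE, adjusted p = 7.5e-05). Mesothelial markers summed to 13.0, 25.4, 1.05, 20.2 and 36.3 CPM, squamous epithelial markers to 63.4, 122, 1.47, 90.0 and 107 CPM, and lung epithelial markers without Napsa to between 7.58 and 107 CPM. Replicate 3 was lowest in these 3 lists, as for the summed matrix genes. It was also the lowest library for 36.8% of the 11477 genes with at least 10 counts in every lung library, and for the endothelial list. The fibroblast list was lowest in replicate 2 without Pi16 and Serpinf1, and in replicate 3 with all 17. Of 13 endothelial markers tested, 6 rose and Tie1 fell. The 14 endothelial markers summed to 10.6 to 17.9 CPM in lung TIMs and 8.87 to 9.83 CPM in DBA2 BM IMs. The part of such cells was not tested.

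The change in primary tumors minus the change in LN4K1 lungs was tested as an interaction. Strain, cell line, number of cells injected, route and tissue cannot be told apart in this interaction. It passed an adjusted p under 0.05 for 7 of 41 genes tested, beside 26.5% of 15182 genes, and it could be estimated for the 12 genes with more than 3 counts in both marrow groups. Pcolce (5.74 ± 1.07, SE, adjusted p = 0.00175), Col5a1 (5.33 ± 1.11, SE, adjusted p = 0.00332), Ogn (4.87 ± 1.44, SE, adjusted p = 0.0217), Fbln1 (4.02 ± 1.17, SE, adjusted p = 0.0199) and Col4a1 (2.98 ± 1.04, SE, adjusted p = 0.0444) had the more positive change in primary tumors, on the log2 scale. Thy1 (adjusted p = 0.00143) and Postn (adjusted p = 0.0423) passed with 3 and 0 counts in FVB BM IMs, so no size is given. Sparc, which rose in both models, did not pass (adjusted p = 1). Without FVB BM IM replicate 1 or 2 the number that passed was 4, and DESeq2 gave 13.

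Other genes of matrix assembly were read from lists. Of 25 other collagens, 16 were tested in primary tumor TIMs, where 7 rose and none fell. In lymph node TIMs 11 were tested, of which 1 rose and 2 fell (Col19a1 and Col4a4), and in lung TIMs 12 were tested, of which 2 rose and 1 fell (Col22a1). Of all genes, 33.3% rose in primary tumor, 20.2% in lymph node and 13.9% in lung TIMs (adjusted p under 0.05). Col16a1, a fibril-associated collagen, stood at 17.1, 42.01, 15.99, 36.1 and 27.7 CPM in primary tumor TIMs (adjusted p = 7.28e-05), and Col8a1, a short-chain collagen of vessels, at 5.58, 13.7, 2.26, 10.98 and 8.44 CPM against 0 (adjusted p = 8.41e-05). Col17a1, a transmembrane collagen of epithelia, stood at 3.71, 5.10, 1.12, 5.79 and 4.12 CPM in primary tumor TIMs, at 7.79, 6.97, 27.7, 13.6 and 2.22 CPM in lymph node TIMs and at 0 in FVB BM IMs, and the difference between the sites did not pass (adjusted p = 0.126).

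Of 22 genes for collagen synthesis and folding, all were tested in primary tumor TIMs, where 17 rose and 2 fell. In lymph node TIMs 13 were tested, of which 7 rose and 2 fell. In lung TIMs 18 were tested, of which 4 rose and 1 fell. Of all genes tested, 33.3%, 20.2% and 13.9% rose in these comparisons (adjusted p under 0.05). Serpinh1, the collagen chaperone HSP47, stood at 17.4, 29.0, 13.2, 43.4 and 28.4 CPM in primary tumor TIMs and at 0.0227, 0.0713 and 0.0179 CPM in FVB BM IMs, a log2 fold change of 9.40 ± 0.640 (SE, adjusted p = 2.45e-06). P4ha1, a prolyl hydroxylase subunit, was present in all libraries, between 39.7 and 42.8 CPM in FVB BM IMs, between 131 and 164 CPM in primary tumors and between 179 and 208 CPM in lymph nodes. Between the sites, 21 of these genes were tested, and Adamts2, Bmp1, Fkbp14, Leprel1, P4ha3 and Serpinh1 were lower in the lymph node than in primary tumors. P4ha1 was the 1 gene that was higher there, by 0.42 ± 0.0839 on the log2 scale (SE, adjusted p = 0.00824).

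The 7 matrix genes that monocytes and macrophages are known to express were abundant in every group. In FVB BM IMs they summed to 2571 to 4443 CPM, in primary tumors to 13120 to 16290 CPM and in lymph nodes to 7899 to 11460 CPM. In DBA2 BM IMs the sums were 3181 to 4186 CPM and in LN4K1 lungs 3425 to 6047 CPM. All 7 rose in primary tumors, 5 rose and 1 fell in the lymph node, and 5 rose in the lung. In the lymph node 4 were lower than in primary tumors. Fn1 (fibronectin) stood at 823, 888 and 1534 CPM in FVB BM IMs and at 2014, 1885, 2159, 2175 and 2716 CPM in primary tumor TIMs, a log2 fold change of 0.99 ± 0.219 (SE, adjusted p = 0.00339). Vcan (versican) rose by 2.37 ± 0.139 in primary tumors, 2.48 ± 0.222 in the lymph node and 3.20 ± 0.144 in the lung (SE), with adjusted p of 9.92e-07, 2.22e-05 and 9.75e-07. In primary tumor TIMs this list was highest in replicate 3, the library with the lowest summed level of the 42 genes.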

How the data were processed

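RNA of sorted IMs was sequenced from 21 libraries in 5 groups, made with a SMART low-input and Nextera XT protocol that does not keep strand. The deposited values were raw counts per gene symbol. The authors trimmed reads with BBDuk, aligned them to mm10 with BBMap, sorted with SAMtools (version 1.8) and counted with featureCounts (version 1.5.2), with counting settings not given in the sources used here. All samples were grouped by the GEO labels, and total counts were 80772922 to 101043568 per library.

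Each comparison was fitted on its own groups with edgeR (version 4.0.16, R 4.3.3), using TMM factors, filterByExpr (minimum count 10, minimum total 15) and robust quasi-likelihood fits, and p-values were adjusted by Benjamini and Hochberg's method over every gene tested. DEGs had a log2 fold change beyond 1 in either direction with an adjusted p under 0.0001, and the interaction was called at an adjusted p under 0.05. DESeq2 (version 1.42.0) served as an alternative. Fits were tested on simulated data with 200 changed genes per comparison. Where a group had no counts, a bound against 3 counts per library was computed, and for 1 to 3 counts a ratio with an exact 95% counting interval.

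The 42 genes and all lists were chosen with earlier results of these data known. All 42 were described by levels, with a fold change and standard error only where the adjusted p was under 0.05, and other genes were named only from the lists. Alternatives were DESeq2 size factors, a filter of 1 count in total, all 5 groups in 1 fit, DESeq2 with and without shrinkage, a block for the replicate number, the fold threshold left out, and each library left out in turn. No libraries of a group agreed within sampling noise.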

Additional observations from a re-analysis of the deposited data

Results flagged for a closer look

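Of 74 groups of 5 libraries examined for a library far from the other 4, 4 had one, and chance alone gives about 1 in 20. Col3a1 stood at 26.5 CPM in LN4K1 lung replicate 5, against 0.121 to 7.17 CPM in the others. Eln stood at 1.84 CPM in the same library, against at most 0.394 CPM. Col4a2 stood at 6.50 CPM in LN4K1 lung replicate 2, and at 0 CPM in lymph node replicate 1, where the other lymph node libraries had 10.6 to 13.4 CPM.

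By edgeR's interaction term, the change in LN2E1 primary tumors differed from the change in LN4K1 lungs for 7 of the 41 genes tested. Among all 15182 genes the share was 26.5%. Only 12 of the 41 had more than 3 counts in both marrow groups, so the count cannot be weighed against that share. It is no result about the 42 genes as a group. The log2 difference was 5.33 for Col5a1, 2.98 for Col4a1, 4.87 for Ogn, 4.02 for Fbln1 and 5.74 for Pcolce, each with the more positive change in primary tumors. Postn (adjusted p = 0.0423) and Thy1 (adjusted p = 0.00143) had at most 3 counts over the FVB BM IMs, so the size of their difference cannot be given. Strain, cell line, number of cells injected, route and tissue cannot be told apart in this comparison.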

How the results depend on the processing

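The number of the 42 genes called higher in primary tumor TIMs was 24, and it was 8 with all 5 groups in 1 fit, 0 with the replicate block, 37 without the fold threshold, and 12 to 23 with 1 library left out. In lymph node TIMs it was 0, and 7 in DESeq2 with and without shrinkage and 12 without the fold threshold. In LN4K1 lung TIMs it was 0, and 1 with a filter of 1 count in total, 12 in DESeq2 with and without shrinkage, 15 without the fold threshold and 0 to 3 with 1 library left out. Between lymph node and primary tumor 2 were lower, against 0 with the replicate block, 11 in DESeq2 and 9 with shrinkage, 21 without the fold threshold and 0 to 1 with 1 library left out. Between the marrows, 1 higher and 2 lower were called in DESeq2 with and without shrinkage, and 1 higher and 3 lower without the fold threshold, against 0. The interaction passed for 7 genes, 13 in DESeq2 and 4 to 9 with 1 library left out. The cause of these shifts was not tested. Under the replicate block no gene of the whole table was a DEG in any of the 5 comparisons, where 35, 7 and 6 of the 42 genes rose with an adjusted p under 0.05 in primary tumor, lymph node and LN4K1 lung TIMs and 17 were lower in lymph node than in primary tumor TIMs. Deviations of libraries with the same number correlated at -0.1 to 0.0573, so they gave no sign of pairing. Whether libraries with the same number came from the same mouse is not given by the labels and was not tested. Of 1421 log2 fold changes of single genes under the alternatives, 1245 stayed on their side of an adjusted p of 0.05, 176 no longer passed and 0 reversed. For genes with 0 to 3 counts in a group, the depth allowed no more than a bound or a ratio with its counting interval.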
